A study of Homo sapiens with 4 samples.

Results

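The ZBTB genes encode transcription factors that carry a BTB domain at the amino end and zinc fingers towards the carboxyl end. Members were the peaks that the deposited annotation assigned to a gene symbol made of ZBTB, a number and any letters, in 2 lists of acetylated histone H3 peaks. They came to 42 of 14608 peaks and belonged to 27 genes. The list from H929 cells that overexpressed AIMP1 held 32 member peaks at 25 genes, among 9780 peaks in all, and the list from wild-type H929 cells held 10 at 6 genes, among 4828. RefSeq (GRCh38.p14) names 42 protein-coding genes by the same letters, and 15 of them had no annotated peak in either list. ZBTB8OS, which lies on the opposite strand beside ZBTB8A and encodes the tRNA ligase cofactor archease, matches the letters without being a BTB zinc finger gene. It is kept in the counts and named where it stands.

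H929 is an established human multiple myeloma line, a cancer of antibody-secreting plasma cells. Both groups were crosslinked in 1% formaldehyde for 10 minutes, and both are H929 cells that differ, per the labels, in the overexpression of AIMP1, a scaffold protein of the multi-tRNA synthetase complex. Each group had 1 acetyl-H3 library and 1 input library, of which the 2 acetyl-H3 peak lists were analysed. How AIMP1 was introduced, and whether the cells were 1 clone, is not given in the sources used here. With 1 library per group there is no test between groups, and a difference between the libraries and an effect of AIMP1 cannot be told apart.

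Acetylated histone H3 marks nucleosomes of active promoters and enhancers. In BTB zinc finger proteins the zinc fingers read DNA, while the BTB domain forms dimers and, in many members, recruits corepressors such as NCOR1 with the deacetylase HDAC3. Several steer blood lineages: BCL6 maintains the germinal centre B cell stage that precedes the plasma cell, and in mice Zbtb20 sustains long-lived plasma cells.

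The plasma cell label was held against 10 marker genes: 7 had a promoter peak with overexpression (SDC1, TNFRSF17, PRDM1, XBP1, IRF4, MZB1 and JCHAIN) and 2 in wild-type cells (MZB1 and POU2AF1). With peaks of every kind counted, 7 of the 10 were listed in overexpressing cells and 7 in wild-type cells. Over all protein-coding genes, 33.9% (overexpression) and 7.4% (wild type) had a promoter peak, and 36.1% and 14.5% a peak of any kind. CD38 had no annotated peak in either list. None of 7 monocyte and macrophage markers and none of 5 erythroid markers had an annotated peak in either list. Of 8 markers of earlier B cells, BACH2 and BCL6 had a promoter peak with overexpression and CIITA in wild-type cells, and of 8 T and NK cell markers 1 (BCL11B) and 1 (KLRD1). With peaks of every kind, 2 of the earlier B cell markers were listed with overexpression and 2 in wild-type cells. For the T and NK cell markers these counts were 1 and 3. The 2 lists differed as a whole: peaks had a median width of 1621 bp and a median fold enrichment of 7.34 in the overexpression list, against 828.5 bp and 4.47 in the wild-type list, and 67.1% against 11.2% of peaks had a p of at most 1e-05. Read depth is unknown, and fold enrichment and p are the authors' values, which rank peaks within 1 list only.

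Promoter peaks at ZBTB genes were almost all in the overexpression list. A promoter peak, which in the authors' annotation lies within 3 kb of a transcription start site (TSS), was listed for 23 of the 42 genes in overexpressing cells and for 1 in wild-type cells. These shares are 54.8% (exact 95% binomial interval 38.7 to 70.2, counting error only) and 2.38% (0.0603 to 12.6). Of 19970 protein-coding genes on the same chromosomes, 33.9% had one in overexpressing cells and 7.4% in wild-type cells. Without ZBTB8OS the first count was 22 of 41. Only ZBTB20 had one in each list (background 5.39%), 22 genes had it with overexpression alone (background 28.5%), and no ZBTB gene had it in wild-type cells alone (background 2.01%), where a count of 0 of 42 allows a share of up to 7.14% by a limit of 3 counts and up to 8.41% by the exact interval. With both lists held to 4828 peaks, the longer one by lowest p, 11 ZBTB genes had a promoter peak with overexpression, none in both lists, and ZBTB20 alone in wild-type cells only. No share over all genes was computed at this length, and the 33.9% belongs to the full list. Of the genes whose promoter was listed at least once, 22 of 23 ZBTB genes and 79.5% of all 7965 genes were listed with overexpression alone. With peaks of every kind counted, 25 ZBTB genes were listed in overexpressing cells (background 36.1%), 6 in wild-type cells (background 14.5%) and 4, namely ZBTB7A, ZBTB8A, ZBTB20 and ZBTB43, in both (background 9.28%). An unlisted gene had no peak past the authors' threshold, and lower acetylation at it could not be seen.

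**Figure D1:**
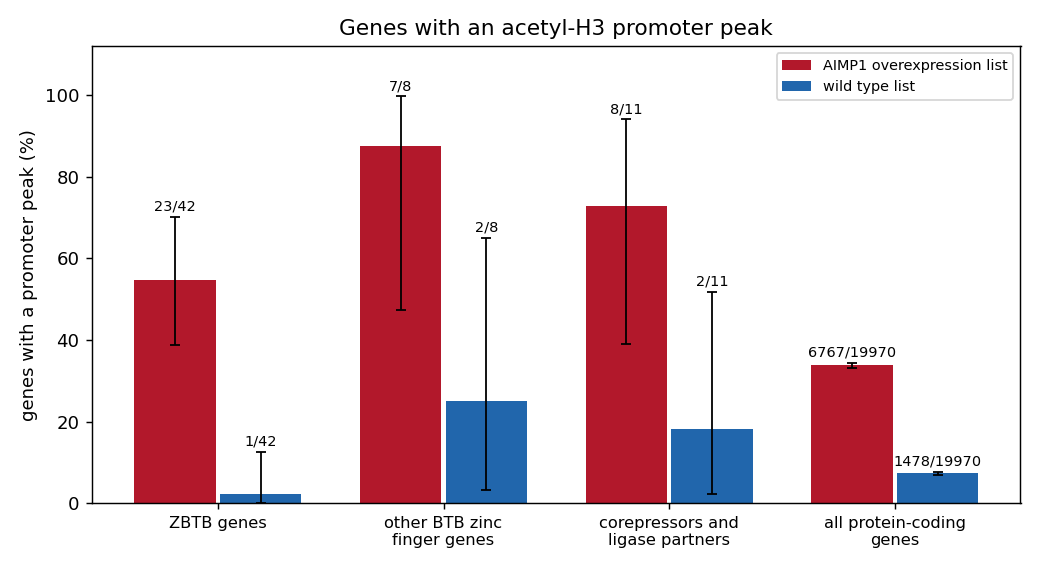
Percentage of genes with an acetyl-H3 promoter peak (vertical axis) in the overexpression list (red) and the wild-type list (blue), for 4 sets of genes, with exact 95% binomial intervals and the counts above the bars. ZBTB genes stand at 54.8% and 2.38%, and all protein-coding genes at 33.9% and 7.4%.

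Where the peaks lay also differed between the lists. In the overexpression list 27 of 32 ZBTB peaks (84.4%, interval 67.2 to 94.7) were at promoters and the other 5 in introns. Over all genes, 84.9% of peaks in that list were at promoters and 4.95% in introns. In the wild-type list 1 of 10 ZBTB peaks was at a promoter (interval 0.253 to 44.5%), 8 were in introns (44.4 to 97.5%) and 1 was distal intergenic. Of all wild-type peaks 36.0% were at promoters, which lies within the first interval, and 30.2% in introns. Only 1 pair of ZBTB peaks overlapped between the lists, in intron 2 of ZBTB7A. That is 3.12% of the overexpression (interval 0.0791 to 16.2) and 10% of the wild-type ZBTB peaks (0.253 to 44.5). Of all peaks 10.9% and 22.2% overlapped, which lie within these intervals. From the 27 overexpression promoter peaks the nearest wild-type peak of any gene was 4835 to 16446183 bp away, with a median of 121541 bp. Over all 8300 promoter peaks of that list the median was 85475 bp, and 987 of them overlapped a wild-type peak.

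ZBTB38 carried the widest acetylated stretch of the family and one of the widest of the overexpression list. ZBTB38 binds methylated CpG sites and represses transcription from them. It had 3 overexpression peaks in a row on chromosome 3. The intronic first peak (141378434 to 141381131) was 2698 bp wide with a fold enrichment of 7.97 and a p of 1.41e-21. A gap of 178 bp separated it from a promoter peak of 12300 bp (141381310 to 141393609, fold enrichment 10.23, p 4.51e-120), and a gap of 4531 bp separated that one from a promoter peak of 15315 bp (141398141 to 141413455, fold enrichment 21.48, p 5.89e-130). By width the last ranked 6 of 9780 and the middle one 12. By fold enrichment they ranked 15 and 1638. The neighbours in the width ranking were PRDM1, the plasma cell regulator, with 15465 bp, and the noncoding RNA gene NEAT1 with 15302 bp. Together the 3 peaks covered 30313 bp, which is 40.0% of the bases under all overexpression ZBTB peaks. With peaks joined across gaps of up to 1 kb, ZBTB38 held ranks 9 and 11 of 9291 by span, and with gaps of up to 5 kb its 3 peaks formed a stretch of 35022 bp that ranked 3 of 8783. No wild-type peak was annotated to ZBTB38, and the nearest one, annotated to PXYLP1, lay 83724 bp before the stretch.

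The wide peaks did not sit at the first start of ZBTB38. RefSeq gives 10 promoter windows for the gene, each from 250 bases before to 50 bases after a start. The 12300 bp peak held 4 of them and the 15315 bp peak held 3, and the 3 windows farthest upstream lay outside every peak of both lists. The window at the first start ended 54198 bp before the nearest overexpression peak. The summit of the 15315 bp peak was 94 bp upstream of its annotated start, while that of the 12300 bp peak was 4287 bp downstream of its own. The 2 windows below, from RefSeq (GRCh38.p14), show the contrast between the first start, with no peak, and the start at the summit of the widest peak. Capitals mark the GC box GGGCGG or its complement.
ZBTB38 first start, chr3:141323936-141324235, plus strand: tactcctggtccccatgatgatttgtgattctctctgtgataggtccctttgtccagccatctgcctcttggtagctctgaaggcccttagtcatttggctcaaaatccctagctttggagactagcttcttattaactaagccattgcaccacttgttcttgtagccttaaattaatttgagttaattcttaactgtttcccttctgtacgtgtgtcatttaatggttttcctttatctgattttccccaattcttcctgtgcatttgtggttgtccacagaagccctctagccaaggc
ZBTB38 start under the widest peak, chr3:141402099-141402398, plus strand: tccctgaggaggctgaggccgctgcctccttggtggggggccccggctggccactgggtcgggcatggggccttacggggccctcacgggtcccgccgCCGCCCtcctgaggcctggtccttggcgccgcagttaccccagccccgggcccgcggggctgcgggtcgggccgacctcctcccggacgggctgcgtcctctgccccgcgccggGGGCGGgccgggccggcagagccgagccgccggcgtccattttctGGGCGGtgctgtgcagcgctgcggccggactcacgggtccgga
The window at the first start held 1 CG dinucleotide and 42.7% G and C bases, with no GC box. The window under the widest peak held 35 CG dinucleotides and 78.3% G and C, with 3 GC boxes. The other windows under the ZBTB38 peaks were not all of that kind: of the 7 windows there, 5 had under 50% G and C.

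ZBTB33 and ZBTB4 are the other readers of methylated DNA in the family. ZBTB33, known as Kaiso, had 1 overexpression peak on chromosome X (120250778 to 120251580, fold enrichment 8.38, p 7.91e-05), which at 803 bp was the narrowest of the ZBTB promoter peaks in overexpressing cells. ZBTB4 had no annotated peak, but its RefSeq promoter window lay wholly under an overexpression peak annotated to POLR2A, the gene of the largest RNA polymerase II subunit (chromosome 17, 7483305 to 7484678, fold enrichment 9.96, p 1.31e-11). Neither gene had an annotated wild-type peak (background 14.5%).

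**Figure D2:**
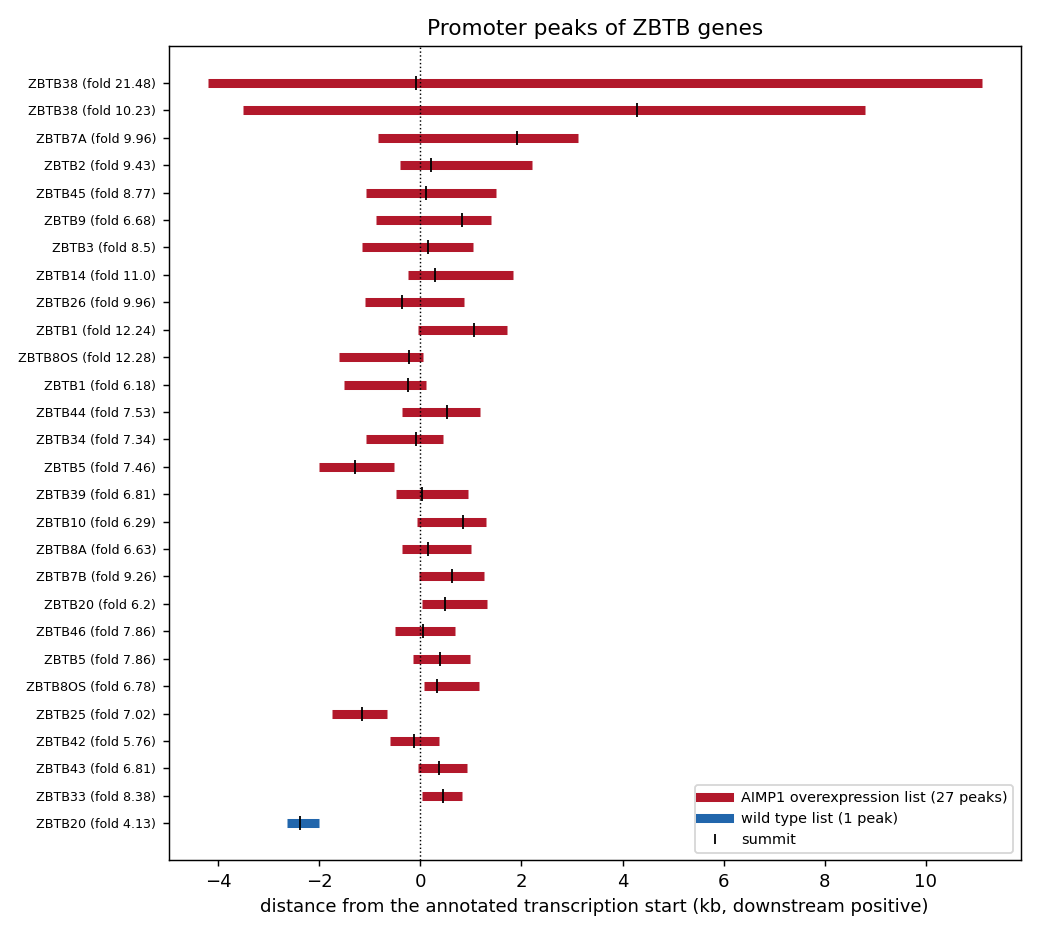
Each bar is 1 promoter peak of a ZBTB gene, drawn by its distance in kb from the annotated start (horizontal axis, downstream positive), with the summit as a tick, the overexpression peaks above and the wild-type peak at the bottom. The 2 ZBTB38 peaks, 15315 and 12300 bp wide, extend beyond all others, and the wild-type peak of ZBTB20 lies upstream of its start.

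Leaving ZBTB38 aside, the 25 ZBTB promoter peaks of overexpressing cells had a median width of 1490 bp and a median fold enrichment of 7.53, both a little below the 1684 bp and 7.65 of all 8300 promoter peaks of the list. Their widths ran from 803 to 3959 bp, and 10 of 25 were wider than the median of the whole list. With ZBTB38 the medians of the 27 peaks were 1519 bp and 7.86. Of these 27 peaks, 22 covered their annotated start, and in 16 of these (72.7%) the summit lay downstream of it, against 75.7% of 7419 such peaks of the list. The summit was 33 to 4287 bp from the start, with a median of 262 bp, against 323 bp for the list.

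**Figure D3:**
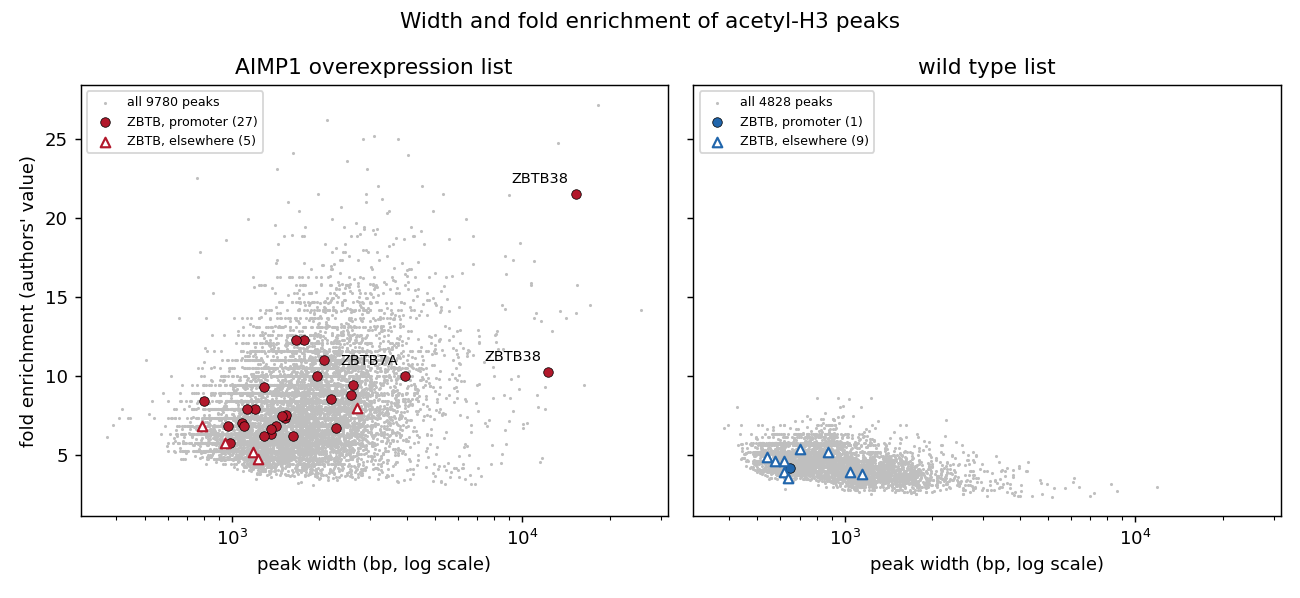
Fold enrichment (vertical axis) against peak width in bp (horizontal axis, log scale) for every peak, with ZBTB peaks at promoters as filled circles and elsewhere as open triangles. In the overexpression list (left) ZBTB38 lies at the far right with 15315 bp and 21.48, and in the wild-type list (right) the 10 ZBTB peaks lie between 3.55 and 5.38.

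Of 10 ZBTB genes known from lymphoid and myeloid lineages, 6 had a promoter peak with overexpression (ZBTB1, ZBTB7A, ZBTB7B, ZBTB20, ZBTB25 and ZBTB46) and ZBTB20 alone had one in wild-type cells. The shares were 54.8% and 2.38% over the 42 ZBTB genes, and 33.9% and 7.4% over all protein-coding genes. The lineage genes were thus near the family as a whole. ZBTB16, ZBTB17, ZBTB24 and ZBTB32 had no overexpression peak annotated to them. ZBTB7A, known as LRF, directs B against T cell fate and silences fetal globin. Its overexpression promoter peak on chromosome 19 (4063833 to 4067791) was 3959 bp wide, the widest after ZBTB38, with a fold enrichment of 9.96 and a p of 3.3e-34. Its 2 further overexpression peaks were weak and intronic. One lay in intron 1 (4058655 to 4059885, fold enrichment 4.72, p 0.000449) and one in intron 2 (4051181 to 4052364, fold enrichment 5.18, p 0.00047). The wild-type list had no promoter peak there. It had a peak in intron 2 (4051648 to 4052285, 638 bp, fold enrichment 3.55, p 0.000838) that lay wholly within the overexpression one, and a distal peak 15926 bp upstream of the start (4082871 to 4083570, fold enrichment 5.38, p 0.000472). The overlapping pair began 13368 bp (overexpression) and 13447 bp (wild type) downstream of the start, and neither of its p-values reached 1e-05. Both RefSeq promoter windows of ZBTB7A lay wholly under this 3959 bp peak, the widest outside ZBTB38. The upstream one, shown here, had 71.7% G and C and 2 GC boxes in capitals, and the downstream one had 83.7% and 5 GC boxes.
ZBTB7A, chr19:4066850-4067149, minus strand: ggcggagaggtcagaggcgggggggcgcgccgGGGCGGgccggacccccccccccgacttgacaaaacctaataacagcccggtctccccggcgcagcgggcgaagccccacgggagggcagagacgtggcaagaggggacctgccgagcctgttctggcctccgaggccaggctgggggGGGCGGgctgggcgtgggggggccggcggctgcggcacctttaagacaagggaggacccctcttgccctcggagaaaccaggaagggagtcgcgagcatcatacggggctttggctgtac

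ZBTB20 had peaks in both lists at different places. The overexpression promoter peak lay at the upstream end of the gene on chromosome 3 (115145947 to 115147233, fold enrichment 6.2, p 0.000255), 32 bp downstream of its annotated start. The wild-type list had 3 peaks farther into the gene, none of which overlapped it. The first was in intron 1 (115021215 to 115021832, fold enrichment 4.57, p 0.00052), the next in intron 7 of 11 (114582839 to 114583710, fold enrichment 5.14, p 5.07e-05). The last was a promoter peak 2000 bp upstream of an internal start (114456817 to 114457463, fold enrichment 4.13, p 0.000802), which lay 688483 bp from the overexpression peak. The presence of ZBTB20 in both lists therefore rests on starts that are far apart.

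**Figure D4:**
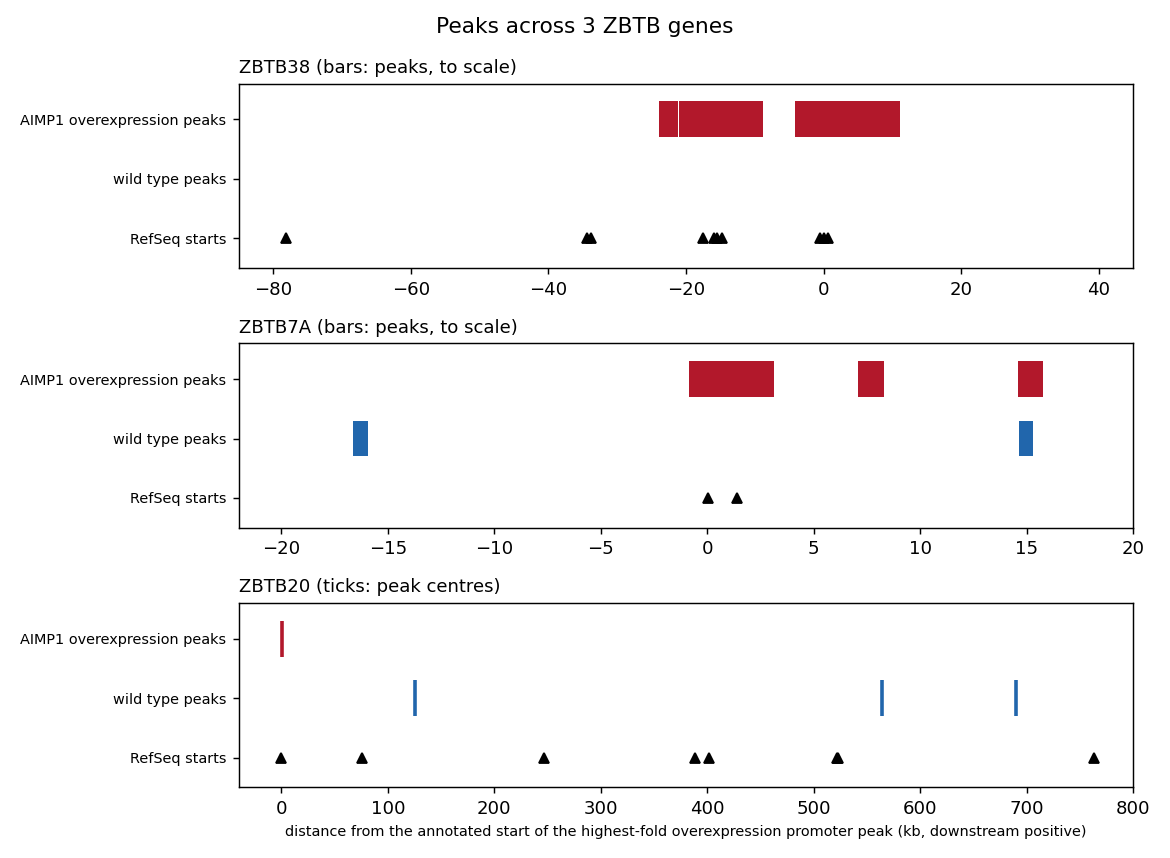
Peaks of the overexpression list (red, upper row) and the wild-type list (blue, middle row) and RefSeq starts (triangles) by distance in kb from the annotated start of the highest-fold overexpression promoter peak, at ZBTB38, ZBTB7A and ZBTB20. ZBTB38 has 3 overexpression peaks and no wild-type peak, ZBTB7A has 1 overlapping pair in intron 2, and ZBTB20 has 1 overexpression and 3 wild-type peaks at different places.

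ZBTB1 and ZBTB25 share a head-to-head promoter on chromosome 14. ZBTB1 is required for lymphocyte development in mice. Of its 2 overexpression peaks one had a fold enrichment of 12.24 (64503898 to 64505668, p 1.45e-17), the highest of a BTB zinc finger member after ZBTB38, and the other had 6.18 (64502215 to 64503839, p 1.73e-05). ZBTB25 had 1 peak with a fold enrichment of 7.02 (64505875 to 64506957, p 3.56e-06), which lay 662 bp upstream of its annotated start. The 3 peaks were separated by 58 and 206 bp. The peak of 12.24 annotated to ZBTB1 also held 2 whole RefSeq promoter windows of ZBTB25, so these peaks cannot be divided between the genes. The nearest wild-type peak was 276667 bp away. The ZBTB1 window, shown because the 58 bp gap falls inside it, had 203 of 300 bases under the peak of 6.18 and held 4 GC boxes.
ZBTB1, chr14:64503637-64503936, plus strand: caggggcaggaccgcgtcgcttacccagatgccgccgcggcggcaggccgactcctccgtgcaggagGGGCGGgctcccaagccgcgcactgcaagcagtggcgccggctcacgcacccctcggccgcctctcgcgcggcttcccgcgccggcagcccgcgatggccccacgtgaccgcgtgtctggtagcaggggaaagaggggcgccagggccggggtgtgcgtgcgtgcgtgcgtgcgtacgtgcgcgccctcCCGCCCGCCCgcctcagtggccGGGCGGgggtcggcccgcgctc

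ZBTB7B and ZBTB46 had single overexpression peaks, ZBTB16 had wild-type peaks only, and ZBTB17, ZBTB24 and ZBTB32 had none annotated to them. ZBTB7B, known as ThPOK and needed for CD4 T cells, had an overexpression promoter peak with a fold enrichment of 9.26 (chromosome 1, 155002697 to 155003983, p 2.1e-07). ZBTB46, a marker of classical dendritic cells, had one with 7.86 (chromosome 20, 63830522 to 63831718, p 1.85e-05). ZBTB16, known as PLZF and expressed in natural killer T cells, had no overexpression peak and 2 wild-type peaks on chromosome 11. These lay in intron 3 (114172206 to 114173347, fold enrichment 3.75, p 4.51e-06) and intron 2 (114118184 to 114118798, fold enrichment 3.93, p 0.000802). The first, with 1142 bp, was the widest wild-type ZBTB peak and the only one with a p of at most 1e-05. The nearest overexpression peak, at RBM7, was 225944 and 280493 bp away. For ZBTB32, which limits antibody recall responses in mice, an overexpression peak annotated to the neighbouring methyltransferase gene KMT2B (fold enrichment 14.37) covered the downstream end of the gene, and its promoter window lay 10101 bp from any overexpression peak.

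Genes tied to growth control, telomeres and development were mixed. ZBTB2, a repressor of the p53 pathway, had a promoter peak of 2611 bp in the overexpression list (chromosome 6, 151389334 to 151391944, fold enrichment 9.43, p 3.99e-11). ZBTB5, which represses the p21 gene, had 2 that were 375 bp apart, with fold enrichments of 7.86 and 7.46 (p 6.53e-06 and 7e-09). ZBTB7C had a single overexpression peak in intron 1 (chromosome 18, 48160994 to 48161937, fold enrichment 5.76, p 0.00057), and ZBTB49 had none. Among telomere-binding members ZBTB10 had an overexpression promoter peak with a fold enrichment of 6.29 (p 9.91e-06), and ZBTB40 and ZBTB48 had no annotated peak. The ZBTB48 window is shown as a promoter with CG-rich sequence but no peak: it had 28 CG dinucleotides and 2 GC boxes, and the nearest overexpression peak was 22722 bp away.
ZBTB48, chr1:6579744-6580043, plus strand: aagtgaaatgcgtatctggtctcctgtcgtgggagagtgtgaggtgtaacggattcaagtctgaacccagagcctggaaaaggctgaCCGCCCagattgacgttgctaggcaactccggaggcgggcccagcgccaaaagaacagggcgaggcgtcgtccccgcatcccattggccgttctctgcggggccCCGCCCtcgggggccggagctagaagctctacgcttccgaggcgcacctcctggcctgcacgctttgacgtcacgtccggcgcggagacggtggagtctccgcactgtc
Of the developmental members ZBTB14 (fold enrichment 11, p 4.68e-15), ZBTB45 (8.77, p 3.58e-15, width 2571 bp) and ZBTB42 (5.76, p 0.000899) had overexpression promoter peaks. ZBTB18, a transcriptional repressor that acts in neural development, had none. ZBTB42 had the lowest fold enrichment and the weakest p among the 27 promoter peaks. None of these growth, telomere and developmental genes had an annotated wild-type peak. Over all protein-coding genes 14.5% had a wild-type peak of any kind and 33.9% an overexpression promoter peak. With sets of 4, 3 and 4 genes, a count of 0 does not set these genes apart from the 14.5%.

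The remaining 17 BTB zinc finger members are less well described, and 8 of them had an overexpression promoter peak (background 33.9%, and 54.8% over the 42 ZBTB genes). Fold enrichment was 9.96 at ZBTB26, 8.5 at ZBTB3, 7.53 at ZBTB44, 7.34 at ZBTB34, 6.81 at ZBTB39, 6.81 at ZBTB43, 6.68 at ZBTB9 and 6.63 at ZBTB8A. ZBTB8B had an intronic overexpression peak (fold enrichment 6.81, p 0.000527), which the authors' annotation places in an intron of a ZBTB8A transcript. The wild-type peaks of this group were intronic in the annotation, at ZBTB43 (fold enrichment 4.57, p 0.000774), ZBTB8A (4.88, p 0.000217) and ZBTB41 (3.87, p 6.68e-05). Over all protein-coding genes 14.5% had a wild-type peak of any kind. The ZBTB43 peaks of the 2 lists were 7465 bp apart and those of ZBTB8A 24176 bp apart, with the ZBTB8B peak 13283 bp from the wild-type ZBTB8A peak, and ZBTB41 had no overexpression peak. ZBTB8OS had 2 overexpression promoter peaks 57 bp apart, with fold enrichments of 12.28 and 6.78.

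For some members without an annotated promoter peak, an overexpression peak was credited to a neighbour, since the lists name 1 gene per peak. RefSeq promoter windows of ZBTB21, ZBTB37 and ZBTB47 lay wholly under overexpression peaks annotated to ZNF295-AS1 (fold enrichment 10.56), GAS5 (9.25) and LOC101928323 (6.81), as for ZBTB4 at POLR2A. The start of ZBTB22 lay 336 bp from a peak annotated to DAXX (4.39). The downstream end of ZBTB12 lay 932 bp from one annotated to EHMT2 (9.43), and its promoter window lay 3355 bp from any overexpression peak. Counting a promoter peak, or any peak within 1 kb of either end of the gene, gave 29 of 42 ZBTB genes in overexpressing cells and 1 in wild-type cells, against 43.2% and 9.47% of all protein-coding genes. ZBTB12 and ZBTB32 entered this count by their downstream ends alone. No peak near an end was found for ZBTB6, ZBTB11, ZBTB17, ZBTB18, ZBTB24, ZBTB40, ZBTB48 or ZBTB49, which had no annotated peak of their own either. The files name no genome build. The 32 annotated starts of ZBTB genes that have a RefSeq window all belonged to genes overlapping the same gene in GRCh38.p14, and 24 of them lay within 100 bp of a start in those windows. The windows were set on the peaks on that basis.

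Promoter sequence was compared over 70 RefSeq windows of 36 ZBTB genes. Of these, 40 windows (57.1%) lay at least in part under an overexpression peak and 0 under a wild-type peak, against 37.9% and 4.91% of 22155 windows of protein-coding genes. Windows under an overexpression peak had a median of 68.2% G and C and 27 CG dinucleotides, and windows outside had 54.5% and 6.5. The 30 windows outside came from only 16 genes and included several alternative starts each of ZBTB20, ZBTB38, ZBTB18 and ZBTB7C. Genes with many starts thus weigh more in their values, and ZBTB20 and ZBTB38 also had overexpression promoter peaks. The same split over protein-coding genes gave 67% and 28 under overexpression peaks, and 58.7% and 12 outside. The GC box GGGCGG, searched on both strands, was in 32 of 40 windows under an overexpression peak (80%) and in 11 of 30 outside (36.7%), against 75.6% and 44.5% of protein-coding windows and 45% of all 35116 windows. ZBTB38 departed from this pattern: all 5 ZBTB windows that lay under an overexpression peak with less than 50% G and C were its own. Of protein-coding windows under overexpression peaks, 4.33% had so little. The motif CCAAT was in 32.5% of ZBTB windows under a peak and 50% outside, the E box CACGTG in 12.5% and 13.3%, and the Kaiso core CTGCNA in 60% and 50%. All windows held these in 34.6%, 7.26% and 47.8%. Protein-coding windows under and outside overexpression peaks held CCAAT in 34.6% and 34.7%, CACGTG in 10.6% and 6.96%, and CTGCNA in 43.9% and 49.5%. TCTCGCG was in 1 ZBTB window, that of ZBTB1, and in 3.49% of all windows. Among protein-coding windows it was in 7.92% under overexpression peaks and 2.57% outside. The motifs do not contain one another, windows of 1 gene can overlap, and a match is not a binding site.

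**Figure D5:**
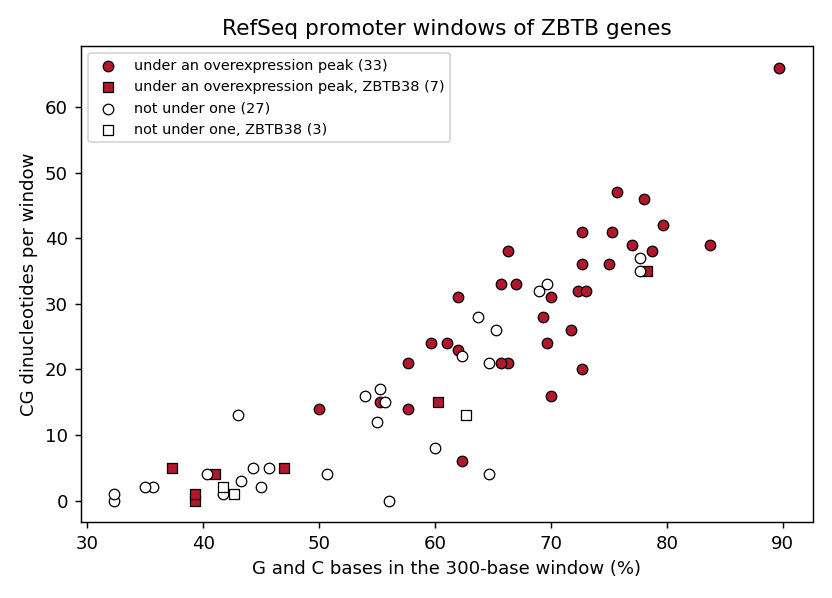
CG dinucleotides (vertical axis) against the percentage of G and C bases (horizontal axis) in the 70 RefSeq promoter windows of ZBTB genes, filled where the window lay under an overexpression peak and square for ZBTB38. Filled circles lie towards the upper right, and 5 of the 7 filled squares lie under 50% G and C.

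Family members with other names were listed beside them, with no test. Of 8 such BTB zinc finger genes 7 had a promoter peak with overexpression (87.5%, interval 47.3 to 99.7, background 33.9%). In wild-type cells 2 had one (25%, interval 3.19 to 65.1, background 7.4%). The growth-control gene HIC1 (fold enrichment 20.44) and MYNN (13.0) had the highest overexpression values, and BCL6 had 7.51. HIC2 had no annotated peak in either list. The GZF1 promoter peaks of both lists overlapped, with 9.43 under overexpression and 4.65 in wild-type cells, and ZNF131 had 1 in each list that did not overlap. The median of each gene's highest overexpression fold enrichment was 7.51 in this list, 7.86 over the 23 ZBTB genes and 7.86 over all 7497 genes with a promoter peak.

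Of 11 corepressor and ubiquitin ligase partners of BTB proteins, 8 had a promoter peak with overexpression (72.7%, interval 39.0 to 94.0, background 33.9%). In wild-type cells 2 had one (18.2%, interval 2.28 to 51.8, background 7.4%). CTBP1 (15.2), BCOR (12.05, width 7095 bp), the ligase scaffold CUL3 (11.53) and NCOR1 (11) had the highest overexpression fold enrichments. The median was 10.1, against 7.86 over all genes with a promoter peak in that list. The SIN3A promoter peaks overlapped (8.68 under overexpression and 4.53 in wild-type cells). HDAC3, the deacetylase that NCOR1 binds, had one in wild-type cells only (5.14, p 0.000406), and GPS2 had no annotated peak. These lists were chosen with earlier results of these data known, and their part in any pattern of the ZBTB genes was not tested.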

How the data were processed

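Peak lists of 2 acetyl-H3 ChIP-seq libraries from H929 cells were analysed, 1 with AIMP1 overexpression and 1 wild type; the 2 input libraries were not analysed here. Per the submitters' processing notes, cutadapt, Trimmomatic, FastQC and Bowtie2 were used, with no versions given. The sources used here name no peak caller, threshold or genome build. Per the file headers, each peak has the authors' fold enrichment, a ratio over a background that is not described, and the authors' p-value, at most 0.001 in both deposited lists. Read depth is unknown. Members, gene lists and the rule for named genes (every member with a peak, in full where it was wide, high, multiple, outside promoters or in both lists) were chosen with earlier results of these data known. One gene of the corepressor list is not reported here. Overlap meant at least 1 bp. It was checked on simulated peaks. Intervals are exact (Clopper-Pearson) at 95%. With 1 library per group no p-value between groups was computed. Promoter windows are from RefSeq (GRCh38.p14) and were matched by gene identifier for 36 of 42 genes. Alternatives were stricter peaks, other promoter and overlap definitions, and neighbouring peaks. Tables were handled in Python 3.11.15 with pandas 2.3.3 and numpy 2.4.6, intervals came from scipy 1.17.1, and plots from matplotlib 3.10.9.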

Additional observations from a re-analysis of the deposited data

How the results depend on the processing

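No paired analysis was possible because 1 library stood for each cell state. With lists of equal length (4828 peaks each), 11 ZBTB genes had an overexpression promoter peak, 0 had promoter peaks in both lists and 1, ZBTB20, in wild-type cells alone, and 0% of ZBTB peaks overlapped between the lists in either direction. No share over all genes was computed at that length. At p of at most 1e-05 the overexpression list kept 6566 peaks, 20 of them at ZBTB genes. The wild-type list kept 543, of which 1 was a ZBTB peak, at ZBTB16. The overexpression promoter share was then 95%. The wild-type promoter genes, the genes in both lists and the wild-type promoter share were 0, and the overlap was 0% in both directions. The wild-type shares at this cut rest on that 1 peak. A cut at the pooled median fold kept 177 of 4828 wild-type peaks and 7128 of 9780 overexpression peaks, and no wild-type ZBTB peak. The wild-type promoter genes, the genes in both lists and the overexpression overlap were therefore 0, and the wild-type shares had no value. With so few wild-type peaks of any gene kept, these values of 0 say little about the ZBTB genes. With promoters within 1 kb of a TSS, the wild-type promoter genes, their share and the genes in both lists were 0. Counting any annotated peak gave 6 wild-type genes, 4 in both lists and 2 in wild-type cells alone. Chosen after seeing the data, RefSeq windows gave 0 wild-type genes, and joining peaks put ZBTB38 at rank 9 by span across 1 kb and at rank 3 across 5 kb. Counts, ranks and medians within 1.5 times of the reported value, and shares within its exact 95% interval, made up 32 of the alternatives' values. The other 22 values moved beyond these limits. Among the 32 were 17 to 29 overexpression promoter genes and median promoter peak widths of 1490 to 2138.5 bp.

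Each group had 1 library, so no value has a replicate error. Depth is unknown, the shorter and weaker wild-type list limits what its missing peaks can show, and the build and peak caller are not named.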

Other observations

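The genes on either side of ZBTB38 had peaks in both lists at different places. PXYLP1, upstream, had an overexpression promoter peak with a fold enrichment of 6.29 (chromosome 3, 141231478 to 141233044, p 5.15e-08) and a wild-type peak at its 3' end with 4.0 (141294008 to 141294709, p 0.000236). RASA2, a RAS GTPase-activating protein gene downstream, had an overexpression promoter peak with 9.96 (141486747 to 141487962, p 2.71e-10) and an intronic wild-type peak with 4.38 (141519217 to 141519848, p 0.000979). The overexpression peaks of these 2 genes were 1567 and 1216 bp wide, against 15315 bp for the widest ZBTB38 peak, and lay 145389 and 73291 bp from the ZBTB38 stretch.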
